A study of Mus musculus with 2 samples.

Results

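Solute carriers are the membrane proteins that move sugars, amino acids, ions, metals, nucleosides and other small molecules into, out of and within cells, and their genes carry the symbol Slc followed by a family number. In heart muscle the best known of them bring in glucose, lactate, fatty acids, creatine and taurine, keep the acid, chloride and magnesium balance of the contracting cell, and load the Golgi apparatus with nucleotide sugars. Most work by secondary transport, in which the movement of one solute is coupled to the gradient of another, and many are placed in intracellular membranes rather than at the cell surface. The carriers described here are those outside family SLC25, which serves the inner mitochondrial membrane, and without the cardiac sodium-calcium exchanger gene Slc8a1. They were taken by symbol from the transcript table, summing a gene's listed transcripts and requiring a mean over both libraries of at least 1, which left 134 of 167 such symbols, out of 11104 genes with that mean. Of the 134, 130 encode carriers, and 4 have a related symbol but encode other proteins (Slc9a3r1 and Slc9a3r2, scaffolds that bind carriers, Slc4a1ap and Slc7a6os).

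The study compared hearts of C57BL/6 mice treated with a mimic of the piRNA CHAPIR and hearts of C57BL/6 mice treated with a scrambled mimic, the negative control (NC). Either mimic was delivered from a minipump implanted in the back for 14 days, CHAPIR at 30 mg/kg, while no separate dose is stated for the NC mimic. RNA was extracted from heart tissue, so every value is a sum over its cell types, and fewer cells of a type cannot be told apart from less RNA per cell. Each group held 1 library, so differences could not be tested or checked in replicates, and each describes these 2 libraries. Whether a library pooled animals was not stated.

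Values are in FPKM, fragments scaled to transcript length and to library size, a unit inferred from the numbers. Because it is scaled to length, it allows levels of different transcripts to be compared. The level of a gene is a sum that can include short annotated transcripts, so ranks of genes by level hold for these sums only. Pairs of values give the CHAPIR library first and the NC library after it. A log2 ratio is the difference of log2(FPKM + 1) between CHAPIR and NC, which is closer to 0 than the plain ratio for genes of low level, and 1.5-fold and 2-fold are read on that scale. The deposited values had sums of 401938 (CHAPIR) and 394675 (NC). Markers of heart muscle were present in both, with 10 of 10 cardiomyocyte genes measured, a summed level of 20010 against 21107 FPKM and 0 genes past 1.5-fold. The 4 Y-linked genes Ddx3y, Eif2s3y, Uty and Kdm5d were at 21.6, 22.1, 6.41 and 1.45 FPKM in the CHAPIR library and all listed at 0 in the NC library, so apparent sex differed together with the mimic, and sex and mimic cannot be told apart. Interferon-induced genes also differed, with 14 of 14 past 1.5-fold and a summed level of 1066 against 218 FPKM. Among the other marker lists the median log2 ratio was 0.12 for 9 endothelial genes, 0.23 for 8 fibroblast genes, -0.46 for 7 smooth muscle and pericyte genes, 0.31 for 6 red cell genes, 1.64 for 5 platelet genes and 1.75 for 2 neutrophil genes. The smooth muscle and pericyte list was split. Acta2, Myh11, Tagln and Cnn1 were at -0.46, -0.55, -0.67 and -0.51, and Pdgfrb, Rgs5 and Kcnj8 at -0.01, 0.11 and 0.03.

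A few carriers held much of the summed level in both libraries. The 134 members had summed levels of 1134 against 1161 FPKM. The 15 most abundant members made up 50.1% and 49.3% of these sums, and the leading member alone, Slc2a4, 8.47% and 8.49%. Slc2a4 encodes GLUT4, the insulin-responsive glucose transporter of muscle and fat, and was at 95.97 against 98.6 FPKM. Next came Slc20a2, a sodium-phosphate cotransporter, at 65.7 against 67.8 FPKM, and Slc16a1, the lactate and pyruvate carrier MCT1, at 51.3 against 55.4 FPKM. Each of these 3 lay within 0.11 log2 units of equal level. Of the Slc20a2 sum, Slc20a2-205, with 30 coding bases, held 17.9 against 19.7 FPKM. Slc20a2-201, with 1968 coding bases, was at 46.7 against 46.6 FPKM, below Slc16a1. Slc38a2, a sodium-coupled transporter of small neutral amino acids, was at 51.6 against 38.6 FPKM, and Slc27a1, a fatty acid transport protein, at 37.7 against 43.8 FPKM. Below them lay Slc43a3, which carries purine nucleobases, at 43.96 against 31.4 FPKM, the scaffold gene Slc9a3r2 at 36.6 against 36.1 FPKM, and Slc35f5 at 32.2 against 34.3 FPKM. The taurine transporter gene Slc6a6 was at 27.2 against 26.6 FPKM. By gene sum the neighbours Slc38a2, Slc27a1 and Slc43a3 exchange places between the libraries, since Slc27a1 was the highest of the 3 in the NC library and the lowest in the CHAPIR library. By the longest coding sequence alone, Slc27a1 was at 32.4 against 40.4 FPKM and Slc43a3 at 31.7 against 25.8 FPKM, so Slc27a1 was not the lowest. Over all 134 members, Pearson's r of the log2 levels was 0.96 and Spearman's rho 0.954, across genes of the same 2 libraries.

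**Figure D1:**
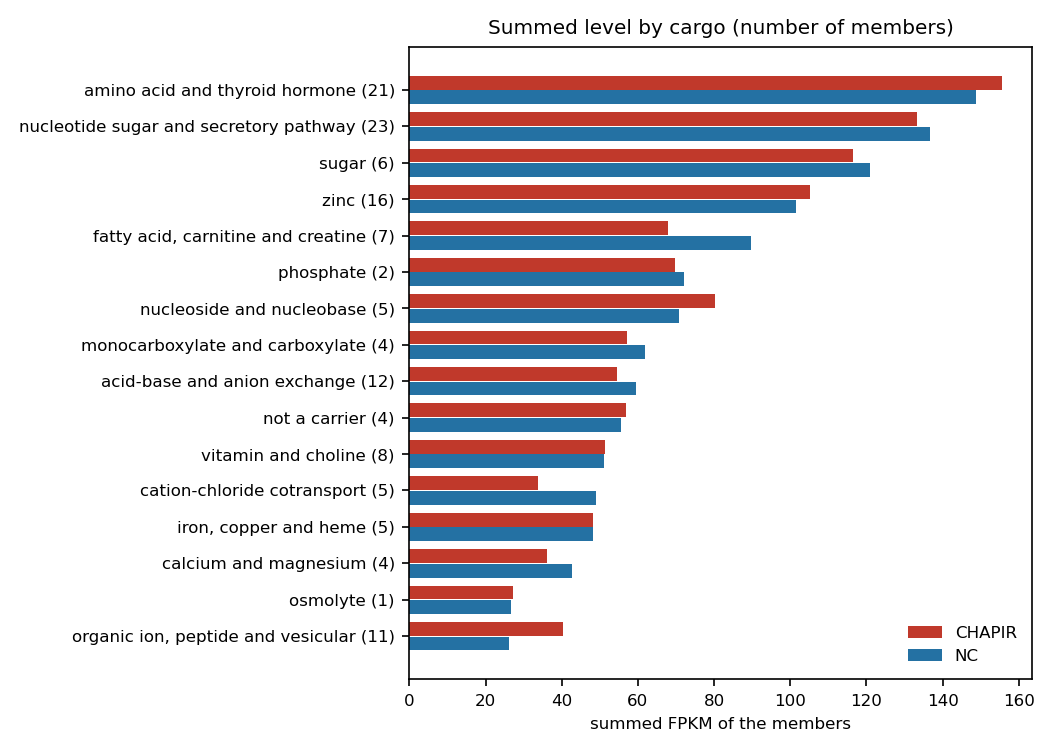
Summed FPKM of the members (horizontal axis) in the CHAPIR library (red) and the NC library (blue) for each group by cargo, with the number of members in brackets and 1 library per bar. Amino acid carriers hold the largest sums, 156 against 149 FPKM, and the bars differ most for organic ion carriers (40.4 against 26.1 FPKM), cation-chloride cotransporters (33.7 against 49.04 FPKM) and the fatty acid, carnitine and creatine group (67.96 against 89.7 FPKM).

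Few solute carriers differed by 1.5-fold between the libraries. At this threshold 3 of the 134 (2.24%) were higher in the CHAPIR library, where 6.39% of all 11104 genes were, and 6 (4.48%) were lower, where 3.59% of all genes were. At 2-fold 3 were higher, against 2.37% of all genes, and 1 was lower, against 1.16% of all genes. Counts at 1.5-fold for groups by cargo and for marker lists are to be read beside the 6.39% and 3.59% of all genes. Most groups by cargo are small, so having no member past 1.5-fold does not set such a group apart from all genes. The median log2 ratio was 0.01 for the members and 0.00 for all genes, and 68 members had a positive and 66 a negative ratio. The members at 1.5-fold or more were Slc47a1, Slc15a3 and Slc10a7, which were higher, and Slc12a7, Slc6a8, Slc9a8, Slc36a2, Slc41a3 and Slc38a3, which were lower. Of these 9, Slc38a3 lay closest to the threshold, at a log2 ratio of -0.59, and the nearest members on the other side of it were Slc35b3 (0.54) and Slc39a7 (0.53). With a pseudocount of 5 in place of 1, the ratio stayed past 1.5-fold for Slc47a1, Slc12a7 and Slc6a8, and was within it for the other 6. The log2 ratio of Slc38a3 was also within it, at -0.57, after rescaling without the mitochondrially encoded and the 50 most abundant genes.

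**Figure D2:**
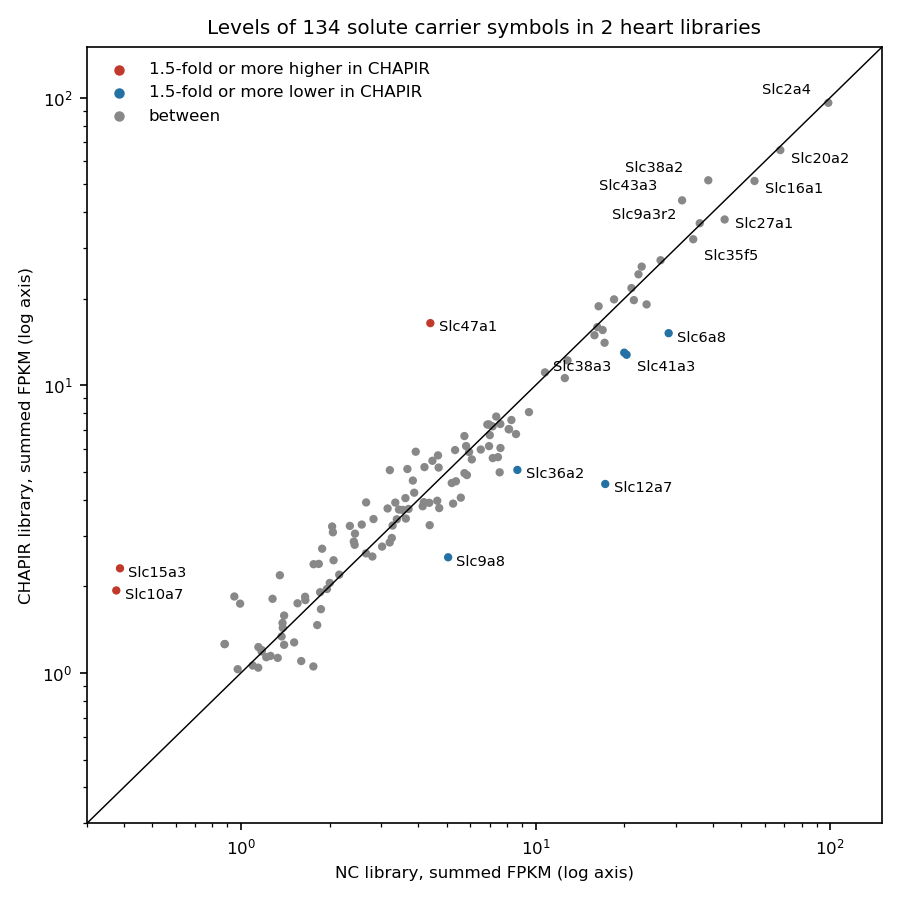
Level of each of the 134 members in the NC library (horizontal) and the CHAPIR library (vertical), in FPKM on log axes, with the line of equal level. Red and blue points are the 3 members at least 1.5-fold higher and the 6 at least 1.5-fold lower in the CHAPIR library on the log2(FPKM + 1) scale, and most others lie close to the line.

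Transporters of organic ions, peptides and vesicle contents held all 3 of the higher members. Slc47a1, which encodes MATE1, an exporter of organic cations in exchange for protons, was at 16.4 against 4.40 FPKM (log2 ratio 1.69), which is 3.74 times as high. It had the highest mean level of its group and the highest ratio of all 134, and rested on 1 listed transcript of 4 annotated. The Slc47a1 gene spans chromosome 11, 61343401 to 61378345 (GRCm38). Slc15a3, a lysosomal carrier of histidine and short peptides that is known from macrophages and dendritic cells, was at 2.31 against 0.389 FPKM (log2 ratio 1.25). Its 1 listed transcript shares exon sequence with Tmem132a on the opposite strand, which was at 0.952 against 1.63 FPKM. Slc10a7, a member of the bile acid transporter family that is needed for normal protein glycosylation in bone, was at 1.94 against 0.378 FPKM (log2 ratio 1.09), from 1 listed of 11 annotated transcripts. Both were well below 1 FPKM in the NC library, so their size rests on low values, and with a pseudocount of 5 the log2 ratio of Slc15a3 became 0.44 and the log2 ratio of Slc10a7 became 0.37. Beside these, the 12 macrophage markers all had positive log2 ratios, 7 of them past 1.5-fold, with a summed level of 496 against 289 FPKM and no marker at 0, and their part in the result was not tested. Other members of the group went either way. Slc10a3 was at 3.23 against 2.04 FPKM, but its exons overlap on the same strand with Ubl4a, at 22.9 against 5.29 FPKM, so reads of the pair may not be told apart. Slc17a7, best known as the vesicular glutamate transporter of neurons, was the lowest, at 4.98 against 7.56 FPKM, and Slc22a3, a polyspecific organic cation transporter, was at 1.47 against 1.82 FPKM.

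Cation-chloride cotransporters set cell volume and chloride by moving chloride together with potassium or with sodium and potassium. Slc12a7 (chromosome 13, 73733094 to 73816754), which encodes the potassium-chloride cotransporter KCC4, was at 4.54 against 17.2 FPKM, the lowest log2 ratio of all 134 members (-1.72, a plain ratio of 0.263). It was past 2-fold under each of the alternatives tried. Of these, only the pseudocounts, centring, quantile normalization and rescaling could change the ratio of a gene with 1 listed transcript. Only 1 of its 11 annotated transcripts was listed. The relatives named here differed far less. Slc12a4 (KCC1), the most abundant of the family in the CHAPIR library, was at 14.9 against 15.9 FPKM, and Slc12a2, the sodium-potassium-chloride cotransporter NKCC1, at 5.86 against 5.95 FPKM. Slc12a9 was at 1.58 against 1.40 FPKM. The order of the family thus differed, with Slc12a7 above Slc12a4 and Slc12a2 in the NC library and below both in the CHAPIR library, and the family's sum was 33.7 against 49.04 FPKM.

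The sequence upstream of Slc12a7 is shown because this gene had the lowest ratio, with capitals marking the GC box letters GGGCGG on either strand. It covers chr13:73763410-73763659 on the plus strand of GRCm38.p6, from RefSeq, and ends before the most upstream of the RefSeq starts near the listed transcript.
Slc12a7 upstream: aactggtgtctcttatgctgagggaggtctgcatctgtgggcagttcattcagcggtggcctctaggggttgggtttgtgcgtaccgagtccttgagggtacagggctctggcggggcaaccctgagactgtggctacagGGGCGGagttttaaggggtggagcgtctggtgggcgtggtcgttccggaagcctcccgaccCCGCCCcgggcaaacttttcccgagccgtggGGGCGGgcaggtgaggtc
It holds 3 GC boxes and 0 E-boxes. Of the 134 members 100 had an entry in the RefSeq promoter table, each of 250 bases before to 50 after a start, and 4 of these were among the 9 past 1.5-fold (Slc12a7, Slc9a8, Slc41a3 and Slc10a7). The GC box was found on either strand in 76% of the 100 and in 69.8% of the 8732 measured genes with an entry. The E-box CACGTG was found in 19% of the members and 12.04% of the measured genes, and its matches among the 4 were in the table entries of Slc12a7, outside the window printed, and Slc41a3. The AP-1 letters TGANTCA were in 5% against 5.93%, and the interferon element core, GAAA repeated after 2 bases, in 2% against 3.85%, with neither in any of the 4. Each motif was searched on both strands, and a match is a description of the letters and not of binding.

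Carriers of fatty acids, carnitine and creatine supply the fuels and the energy buffer of heart muscle. They had the lowest median of the groups by cargo with 3 or more members, -0.21, with 5 of 7 ratios negative, 1 member lower and 0 higher at 1.5-fold. Slc6a8, the creatine transporter, was at 15.2 against 28.3 FPKM (log2 ratio -0.86), the lowest ratio among the 15 most abundant members. Slc6a8 is on the X chromosome (73673150 to 73682502). The 5 X-linked members had a median log2 ratio of 0.00, with 3 positive and 2 negative. Among them Slc10a3, whose exons overlap with Ubl4a on the same strand, was at 0.48 and Slc35a2 at 0.00. The part of sex in the value of Slc6a8 was not tested. The fatty acid transport proteins Slc27a1 and Slc27a4 were at 37.7 against 43.8 FPKM and 3.74 against 4.71 FPKM. Slc22a5, the carnitine transporter OCTN2, was at 7.04 against 8.11 FPKM, and its neighbour in family Slc22a4, which carries ergothioneine, at 1.49 against 1.38 FPKM. Slc16a9 had the second lowest ratio, at 1.05 against 1.76 FPKM, and Slc16a12, also a creatine carrier, the highest at 1.75 against 1.56 FPKM. Without Slc6a8 the members of this group all lay within 1.5-fold.

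The most abundant sugar and monocarboxylate carriers, Slc2a4 and Slc16a1, were close to equal in the 2 libraries. None of the 6 sugar carriers and none of the 4 monocarboxylate carriers passed 1.5-fold, where 6.39% of all genes were higher and 3.59% lower. The medians of the groups were 0.02 and -0.10. Slc2a4 made up 90.9% of the summed level of its family with CHAPIR and 90.2% with NC. Slc2a1, the basal glucose transporter GLUT1, was at 3.70 against 3.44 FPKM. The lowest of the sugar group were Slc2a8, an intracellular transporter, at 4.07 against 5.58 FPKM, and Slc45a4 at 5.63 against 7.46 FPKM. The lower sum of Slc45a4 rested on Slc45a4-204, listed at 0 with CHAPIR but at 3.70 FPKM with NC. Its other listed transcripts were higher, Slc45a4-207 at 2.31 against 1.27 FPKM and Slc45a4-203 at 3.31 against 2.48 FPKM. The highest of the group was Slc50a1, a relative of plant sugar exporters, at 5.20 against 4.20 FPKM. Slc16a1 held 73.3% and 73.9% of family SLC16. Slc16a13 was the lowest monocarboxylate carrier, at 1.10 against 1.60 FPKM, Slc16a7 (MCT2) was at 1.25 against 1.40 FPKM, and Slc16a6 was at 3.42 against 3.38 FPKM. No difference of more than 0.4 log2 units was thus seen between the gene sums in either group.

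Amino acid and thyroid hormone carriers were the second most numerous group, with 21 members, a median of 0.08, and 0 higher and 2 lower at 1.5-fold. Slc36a2, a proton-coupled carrier of glycine, alanine and proline that is also used as a surface marker of brown and beige fat cells, was at 5.08 against 8.68 FPKM (log2 ratio -0.67), from 1 listed transcript. Fat cell markers were lower in the same library. Of 10 measured white adipocyte markers 7 were past 1.5-fold lower and 0 higher, their sum was 464 against 561 FPKM, and Retn and Lep were listed at 0 in the CHAPIR library. Of 5 measured brown adipocyte markers 3 were lower and 0 higher at 1.5-fold. Their sum was 572 against 649 FPKM, of which Cox8b alone held 532 against 585 FPKM, and Ucp1 was listed at 0 in the CHAPIR library. The part of fat cells in the value of Slc36a2 was not tested. Slc38a3, a glutamine transporter that works in both directions, was at 12.98 against 20.01 FPKM. At the other end, Slc43a2, a carrier of branched-chain amino acids, was at 2.19 against 1.36 FPKM and Slc38a2 at 51.6 against 38.6 FPKM. Slc38a2 alone made up 54.1% of the summed level of family SLC38 with CHAPIR and 43.1% with NC. Slc7a7, the light chain y+LAT1 that is abundant in macrophages, was at 5.12 against 3.67 FPKM, and its heavy chain partner Slc3a2 was at 18.8 against 16.4 FPKM. The arginine carrier Slc7a1 was at 7.31 against 6.86 FPKM and Slc1a5, a glutamine carrier, at 3.88 against 5.25 FPKM.

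Among carriers that set pH and exchange anions, 1 of 12 was lower at 1.5-fold and 0 were higher, with a median of -0.03. Slc9a8, a sodium-proton exchanger of the Golgi and endosomes, was at 2.52 against 5.05 FPKM (log2 ratio -0.78). This rested on 2 listed transcripts, of which 1 was listed at 0 in the CHAPIR library. Slc4a3 (AE3), the chloride-bicarbonate exchanger typical of heart, was at 14.1 against 17.2 FPKM. Most of this sum came from Slc4a3-211, a transcript of 921 bases, at 9.63 against 12.99 FPKM. Slc4a3-202, with 3681 coding bases, went the other way, at 3.94 against 3.38 FPKM. The bicarbonate cotransporter Slc4a4 was at 6.15 against 5.81 FPKM. The highest ratios were those of Slc26a10 at 3.28 against 2.57 FPKM and of the sulfate carrier Slc26a2 at 2.39 against 1.84 FPKM, so these 4 all lay within 0.3 log2 units of equal level.

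Magnesium and calcium carriers were 4, of which 1 was lower at 1.5-fold. Slc41a3, linked to magnesium efflux from mitochondria, was at 12.8 against 20.4 FPKM (log2 ratio -0.63), while Slc41a1, the sodium-magnesium exchanger of the cell surface, was at 19.9 against 18.5 FPKM. The 2 genes were thus near one another in the NC library and apart in the CHAPIR library. Slc8b1, the mitochondrial sodium-calcium exchanger, was at 2.54 against 2.79 FPKM, and Slc24a3 at 1.03 against 0.975 FPKM. The phosphate carriers Slc20a1 and Slc20a2 had ratios of -0.13 and -0.04, with Slc20a1 at 3.90 against 4.36 FPKM.

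Zinc carriers fall into families that take zinc out of the cytosol (SLC30) and bring it in (SLC39). They had the highest median of all groups with 2 or more members, 0.15, with 10 of 16 ratios positive, and none passed 1.5-fold. The highest were Slc39a7, which releases zinc from the endoplasmic reticulum, at 5.07 against 3.20 FPKM, and Slc39a8, which carries zinc and manganese, at 3.24 against 2.34 FPKM. The higher sum of Slc39a7 rested on Slc39a7-201, at 2.36 against 0.011 FPKM, while Slc39a7-203 was at 2.71 against 3.19 FPKM. Slc39a1, the most abundant, was at 25.9 against 22.9 FPKM, Slc30a1, the zinc exporter of the surface membrane, at 5.96 against 5.33 FPKM, and Slc30a9, a mitochondrial member, at 19.8 against 21.6 FPKM. The lowest were Slc39a14, which also carries iron, at 8.07 against 9.50 FPKM, and Slc30a5, which loads the secretory pathway, at 7.04 against 8.13 FPKM. Both families contributed, with medians of 0.13 over 6 SLC30 genes and 0.17 over 10 SLC39 genes, but among the 6 zinc carriers with a mean of at least 5 FPKM the median was -0.12. The group's direction therefore depended on the less abundant members.

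Carriers of iron, copper and heme had 0 of 5 members past 1.5-fold and a median of -0.12. Slc40a1 (ferroportin), the iron exporter, was at 6.15 against 6.96 FPKM, and Slc11a2 (DMT1), an importer of ferrous iron, at 4.95 against 5.74 FPKM. The copper importer Slc31a1 was at 7.31 against 6.95 FPKM and Slc48a1, which moves heme out of lysosomes, at 24.3 against 22.4 FPKM, so all 5 differed by less than 0.2 log2 units. In the nucleoside group, again with 0 of 5 past 1.5-fold, the highest ratios were those of Slc43a3 (0.47) and Slc29a2 (ENT2), at 3.92 against 2.66 FPKM. Slc29a1 (ENT1), which takes adenosine into heart cells, was the lowest, at 19.1 against 23.8 FPKM, Slc29a3, its lysosomal relative, was at 2.06 against 2.003 FPKM, and the concentrative carrier Slc28a2 was at 11.1 against 10.8 FPKM. The equilibrative carriers Slc29a1 and Slc29a2 thus lay on opposite sides of 0.

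Nucleotide sugar and other carriers of the secretory pathway, the largest group with 23 members, had 0 past 1.5-fold and a median of -0.01. Their lowest and highest ratios were -0.31 and 0.54. Slc35b2 and Slc35b3 both bring the sulfate donor PAPS into the Golgi, and they marked the ends of the group, Slc35b2 at 5.59 against 7.16 FPKM and Slc35b3 at 1.84 against 0.950 FPKM. The sum of Slc35b3 rested on 3 listed transcripts of low level. Slc35b3-202 was at 0.644 FPKM with CHAPIR but listed at 0 with NC. Slc35b3-209 was at 0.651 against 0.617 FPKM and Slc35b3-208 at 0.550 against 0.333 FPKM. Slc37a4, the glucose 6-phosphate carrier of the endoplasmic reticulum, was at 6.05 against 7.60 FPKM, Slc35g2 at 1.74 against 0.994 FPKM and Slc35f5, the most abundant, at 32.2 against 34.3 FPKM. Vitamin and choline carriers were similar, with 0 of 8 past 1.5-fold and a median of 0.03. Slc44a2, a choline transporter-like protein, was at 21.8 against 21.2 FPKM and Slc44a1, its relative, at 10.6 against 12.6 FPKM. Slc46a3, a lysosomal carrier, was the highest, at 5.88 against 3.92 FPKM, followed by the thiamine carrier Slc19a2 at 2.79 against 2.43 FPKM, and Slc5a6, which takes up biotin and pantothenate, was the lowest, at 3.26 against 4.37 FPKM. The higher sum of Slc46a3 rested on Slc46a3-202, at 3.17 against 0.713 FPKM, while Slc46a3-201 was at 2.71 against 3.21 FPKM. The 4 genes that do not encode carriers lay between -0.04 (Slc7a6os, at 7.34 against 7.60 FPKM) and 0.24 (Slc9a3r1, at 5.71 against 4.67 FPKM).

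**Figure D3:**
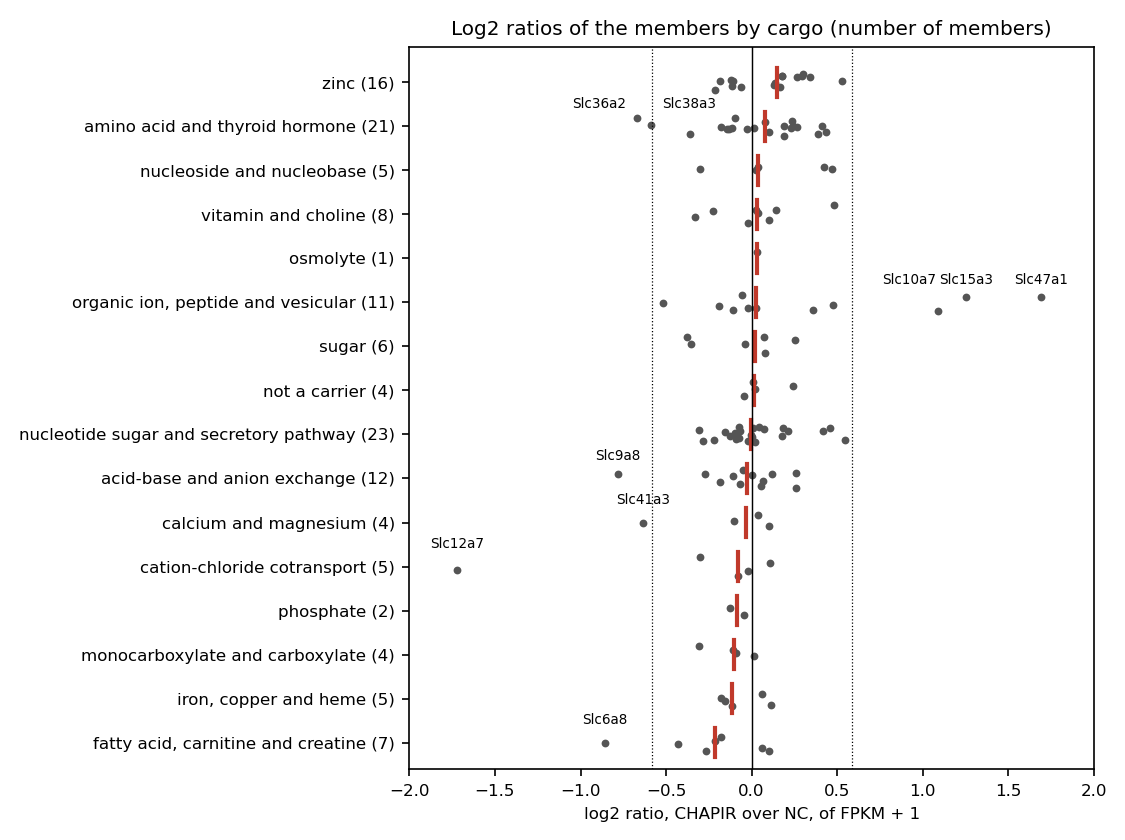
Log2 ratio of each member (horizontal axis, CHAPIR over NC, of FPKM + 1) by cargo, with the number of members in brackets, the group median as a red bar and dotted lines at 1.5-fold. The 9 named points lie past the lines, and group medians run from -0.21 for fatty acid, carnitine and creatine carriers to 0.15 for zinc carriers.

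Some members had listed transcripts that differed in opposite directions, at a share near that of all genes. The 134 members had 248 listed transcripts, all annotated as protein coding, and 74 members had 1 listed transcript. Of the 60 members with more, 17 (28.3%) had at least 1 transcript 1.5-fold higher and another 1.5-fold lower in the CHAPIR library, where 26.2% of all genes with more than 1 listed transcript did. The most abundant transcript differed between the libraries in 14 of the 60 (23.3%), against 26.1% of all such genes. When transcripts with identical coding sequence were summed first, a grouping chosen after the values were seen, 8 of the 17 members (47.1%) no longer had opposing parts, against 26.6% of the 1460 genes with opposing transcripts.

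Several of the cases that vanished were large. Slc28a2 had 3 listed transcripts with 1 shared coding sequence of 1980 bases. Its transcript Slc28a2-202 was at 3.74 against 7.45 FPKM and Slc28a2-201 at 4.77 against 0.863 FPKM, while their sum with the remaining one, Slc28a2-203, was 11.1 against 10.8 FPKM. Slc29a1 had 9 listed transcripts of 25 annotated, and Slc29a1-222 and Slc29a1-203 were both listed at 0 with CHAPIR but reached 9.87 and 4.42 FPKM with NC. Against them, Slc29a1-204 was at 9.36 against 2.11 FPKM and Slc29a1-202 at 3.09 against 0.521 FPKM. The 3 transcripts that encode the form of 1374 coding bases nevertheless summed to 12.4 against 12.5 FPKM, and the difference of the gene lay with the 2 that encode the form of 1380 bases, at 2.83 against 8.01 FPKM. In Slc38a3 the leading transcript Slc38a3-209 was at 7.65 against 17.7 FPKM and Slc38a3-201, of the same coding sequence, at 2.34 against 0.392 FPKM, and the shared coding sequence of 1515 bases summed to 11.8 against 18.7 FPKM. Slc35e2, Slc38a1, Slc39a8, Slc35c2 and Slc5a6 were the remaining 5. Transcripts of one coding sequence differ in their untranslated ends, and how reads were shared among them was not stated.

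In 9 members the opposing transcripts encode different proteins or fragments. Slc6a8-203, which holds 1905 coding bases, was at 10.1 against 25.02 FPKM, and Slc6a8-210, whose annotated coding sequence is 1727 bases, was at 3.08 against 0.705 FPKM. Slc6a8-201, with 1920 coding bases, was at 1.09 against 2.34 FPKM, so both transcripts with the longer coding sequences were lower in the CHAPIR library. Slc38a10 had nearly equal sums, at 15.6 against 16.9 FPKM, but Slc38a10-201 was at 11.8 against 6.71 FPKM and Slc38a10-204 at 3.73 against 9.48 FPKM, a share of 76.02% against 39.7% for the former. These differ in their coding sequence by 1 exon of 24 bases. Slc7a2, which makes 2 cationic amino acid transporters of different affinity by choosing between a pair of exons, had Slc7a2-202 at 1.25 FPKM with CHAPIR but listed at 0 with NC, and Slc7a2-201 at 0.0068 against 0.88 FPKM. Slc39a11 showed the same kind of exchange at low level, with Slc39a11-201 at 1.26 FPKM with CHAPIR but listed at 0 with NC, and Slc39a11-202 listed at 0 with CHAPIR but at 0.882 FPKM with NC. Values this low rest on few fragments, and no depth is known. Slc9a8 was not among the opposing cases. Its Slc9a8-201 was at 2.52 against 3.12 FPKM and Slc9a8-202 was listed at 0 with CHAPIR but at 1.94 FPKM with NC, so the log2 ratio of Slc9a8 became -0.22 with the most abundant transcript only. Among the others of the 9, Slc19a1, Slc44a2, Slc7a6 and Slc4a1ap combined transcripts of different coding length.

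The coding exons that tell these transcripts apart are shown because they are how the encoded proteins of Slc38a10, Slc7a2 and Slc39a11 differ between opposing transcripts, and how those of Slc9a8 and Slc29a1 differ between forms at unequal levels, with the bases present in only 1 of each pair in capitals and up to 15 flanking coding bases of the spliced transcript in lower case. They were read from GENCODE M21 transcripts on GRCm38 and are written in the direction of transcription.
Slc38a10-204, exon at chr11:120108467-120108490, minus strand: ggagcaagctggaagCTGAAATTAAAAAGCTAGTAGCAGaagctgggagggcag
Slc7a2-202, exon at chr8:40908056-40908195, plus strand: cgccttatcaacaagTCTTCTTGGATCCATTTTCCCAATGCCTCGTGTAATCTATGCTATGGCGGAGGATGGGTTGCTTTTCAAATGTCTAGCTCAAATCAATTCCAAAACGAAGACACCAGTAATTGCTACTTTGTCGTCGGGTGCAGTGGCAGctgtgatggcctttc
Slc7a2-201, exon at chr8:40908398-40908534, plus strand: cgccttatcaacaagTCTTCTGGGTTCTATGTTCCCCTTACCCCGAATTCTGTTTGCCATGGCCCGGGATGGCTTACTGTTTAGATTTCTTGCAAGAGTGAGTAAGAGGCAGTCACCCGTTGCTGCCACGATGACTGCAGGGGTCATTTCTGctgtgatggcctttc
Slc9a8-201, exon at chr2:167434782-167434862, plus strand: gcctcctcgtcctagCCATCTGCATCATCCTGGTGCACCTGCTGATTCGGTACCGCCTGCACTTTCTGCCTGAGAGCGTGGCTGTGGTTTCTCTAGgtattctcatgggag
Slc39a11-201, exon at chr11:113522901-113523005, minus strand: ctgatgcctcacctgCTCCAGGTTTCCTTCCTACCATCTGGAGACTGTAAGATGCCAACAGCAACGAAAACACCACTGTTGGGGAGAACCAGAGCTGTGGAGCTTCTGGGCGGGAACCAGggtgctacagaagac
Slc29a1-201, splice site extension at chr17:45588996-45589001, minus strand: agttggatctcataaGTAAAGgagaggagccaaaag
The Slc7a2 exons have 140 and 137 bases and replace one another between the same flanking bases, the exons of Slc9a8 and Slc39a11 have 81 and 105 bases, and the Slc29a1 forms differ by 6 bases at the end of 1 exon. All but the Slc7a2 pair are multiples of the codon length.

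**Figure D4:**
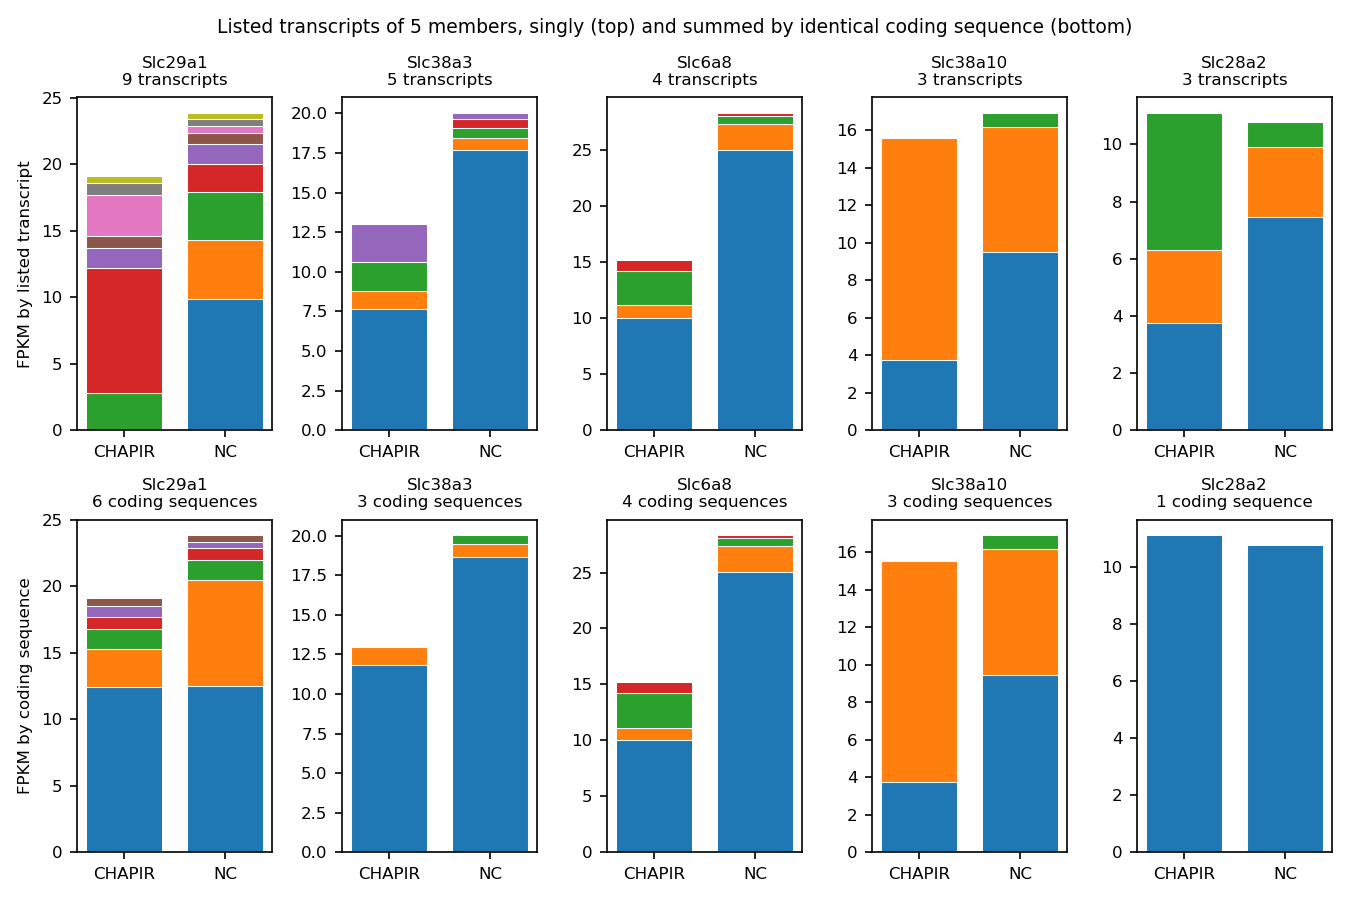
FPKM of 5 members in the CHAPIR and NC libraries, stacked by listed transcript (top row) and by transcripts summed over identical coding sequence (bottom row), with 1 colour per transcript or coding sequence within a panel and axes that start at 0. The 3 transcripts of Slc28a2 exchange places but share 1 coding sequence at 11.1 against 10.8 FPKM, while the exchange in Slc38a10 remains in the bottom row.

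The spread of log2 ratios was set beside that of all genes at like level, because low values vary more. At 1 to 5 FPKM, 2 of 79 members were 1.5-fold higher and 1 was lower, where 8.39% and 5.19% of all genes were. At 5 to 20 FPKM 1 of 40 was higher and 4 were lower, where 5.83% and 2.73% were. At 20 FPKM or more 0 of 15 were higher and 1 was lower, where 3.62% and 2.22% were. In both directions, 3 of 79 (3.80%) were past 1.5-fold in the lowest range, against 13.6% of 4352 genes, with 5 of 40 (12.5%) against 8.56% of 4544 genes in the middle one and 1 of 15 (6.67%) against 5.84% of 2208 in the highest. The median absolute log2 ratio was 0.14 against 0.20, 0.18 against 0.15, and 0.12 against 0.13 in the 3 ranges. The median was thus below that of all genes in the lowest range and above it in the middle range, a description without a test. The SLC25 carriers of the inner mitochondrial membrane had 4 of 35 lower and 0 higher at 1.5-fold and a median log2 ratio of -0.12, and the 33 ABC transporters, pumps driven by ATP, had 0 past 1.5-fold and a median of -0.04. Of all 11104 genes, 3.59% were lower and 6.39% higher at 1.5-fold.

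**Figure D5:**
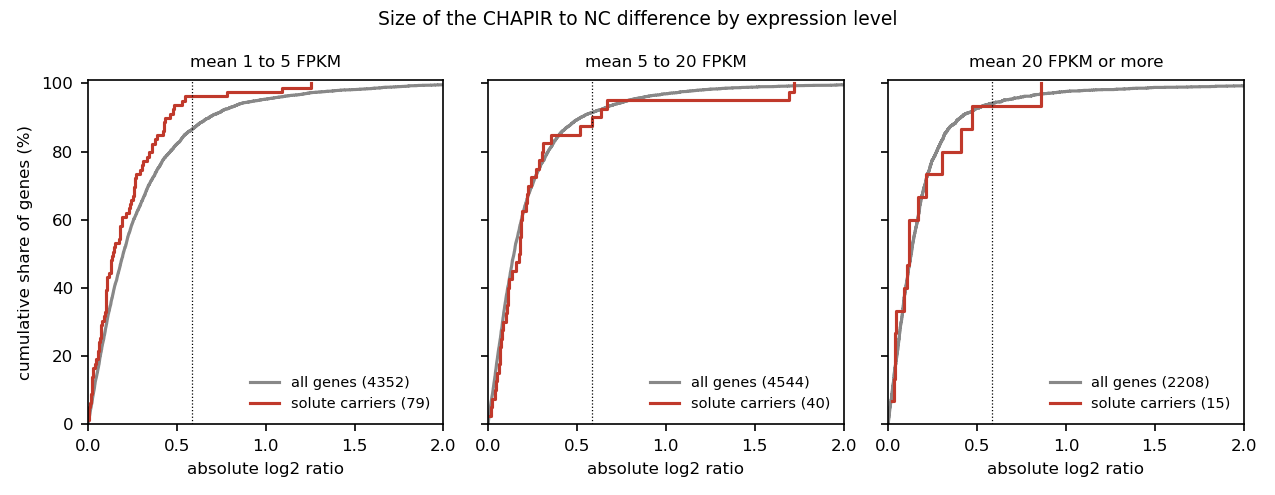
Cumulative share of genes (vertical axis, percent) up to a given absolute log2 ratio (horizontal axis), for the solute carriers (red) and all genes (grey) in 3 ranges of mean FPKM, with a dotted line at 1.5-fold. The red line lies above the grey one at 1 to 5 FPKM, where 3.80% of members and 13.6% of all genes are past 1.5-fold, and close to it at 20 FPKM or more.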

How the data were processed

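Total RNA of mouse hearts was sequenced as 2 libraries after random priming and dUTP second strand synthesis, per the labels' protocols. The deposited table gives 1 value per transcript and library, taken as FPKM made by the authors, though neither labels nor header name the unit. Values times length in kilobases summed to 739668 (CHAPIR) and 732588 (NC), which is within what FPKM allows. Cutadapt, HISAT2 2.0.5, StringTie, STAR 2.5.2b and GRCm38 are named in the submitters' processing notes, without roles. Each listed transcript reached at least 0.5 in one of the libraries, and transcripts lower in both were not analysed here. No depth is known, so counting intervals are left out.

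Of 23178 transcripts, 23128 matched GENCODE M21 by identifier without version and were summed to 12395 genes. Analysis used Python 3.11.15 with pandas 2.3.3 and numpy 2.4.6, and the script's ratios and 2-fold calls were checked on simulated data. The groups by cargo, the marker lists and the members were chosen with earlier results of these data known. Named members are the 15 highest in level, the 12 highest and 12 lowest ratios with a mean of at least 5, the leading member and the 2 highest and 2 lowest ratios of each group, those past 2-fold and those with opposing transcripts, and other names are examples picked with their values in view. A few members under this rule are not reported here. Exons of 14 members overlap with those of another listed gene, and use of strand in counting was not stated. Alternatives were pseudocounts of 0.1 and 5, other filters, the most abundant transcript or coding sequence, protein-coding transcripts, centring, quantile normalization and rescaling.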

Additional observations from a re-analysis of the deposited data

How the results depend on the processing

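No paired analysis was possible because a group had only 1 library. The files give no depth, so its limit cannot be stated. The counts of members were 3 higher and 6 lower at 1.5-fold, and 3 and 1 at 2-fold. At 1.5-fold the higher members became 8 with a pseudocount of 0.1, 1 with a pseudocount of 5, 1 with a mean of at least 5 FPKM, where fewer genes were counted, 5 with no filter on low values, 9 with the most abundant transcript only and 6 with the most abundant coding sequence only, an alternative chosen after seeing the data. The lower members became 8 with a pseudocount of 0.1 and 2 with a pseudocount of 5. At 2-fold the higher members became 1 with a pseudocount of 5, 1 with a mean of at least 5 FPKM, 7 with the most abundant transcript and 5 with the most abundant coding sequence, and the lower members 3 and 2 with the last 2 settings. The share of all genes past each threshold is not given for these settings. The counts therefore do not tell whether the members moved more or less than other genes. The median of the zinc carriers, 0.15, became -0.12 with a mean of at least 5 FPKM. The cause of these changes was not tested, beyond the smaller number of genes named. Of 170 medians over 10 settings the other 169 moved by less than the SD of the ratios of their members. Of the ratios of the 80 named members, 735 values moved by under 1 SD of genes of like level and 30 by more, and no called ratio changed sign (0 cases). Ratios within 1.5-fold did change sign in some members. With the most abundant transcript only, Slc38a10 went from -0.11 to 0.73 and Slc28a2 from 0.04 to -0.83. Slc39a7 went from 0.53 to -0.18 and Slc46a3 from 0.48 to -0.18. Many of the 735 could not move. A filter leaves the ratio of a gene as it is, and all listed transcripts of the members were protein coding. Members with 1 listed transcript also keep their ratio with the most abundant transcript or coding sequence only.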

Other observations

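Carriers that belong to numbered solute carrier families but have other symbols were read as a list of 47, of which 29 had a mean of at least 1 FPKM. Their median log2 ratio was 0.09, with 17 positive and 12 negative. At 1.5-fold 2 of the 29 were higher and 0 lower, where 6.39% and 3.59% of all 11104 genes were. Slco2b1, an organic anion uptake carrier, was at 6.91 FPKM with CHAPIR and 2.25 FPKM with NC, and Flvcr1, a choline and heme transporter, at 1.68 and 0.64 FPKM. The lowest were Tusc3, at 7.004 and 9.47 FPKM, and Letmd1, at 3.12 and 4.28 FPKM. Mpc1 and Mpc2, the subunits of the mitochondrial pyruvate carrier, were the most abundant, with Mpc1 at 161 and 158 FPKM and Mpc2 at 124 and 153 FPKM. The subunits thus differed in their ratio while both remained above each of the 134 solute carriers described.

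A further 33 solute carrier symbols had a mean below 1 FPKM. Those nearest below that limit were Slc7a8, at 0.984 and 0.943 FPKM, and Slc35g1, at 1.07 and 0.837 FPKM, and those nearest above it were Slc24a3, at 1.03 and 0.98 FPKM, and Slc7a2, at 1.26 and 0.88 FPKM. Slc22a18 was listed at 0 in the NC library, at 0.631 FPKM in the CHAPIR library, and Slc27a2 was listed at 0 in the CHAPIR library, at 0.573 FPKM in the NC library. Slc4a1, the anion exchanger of red cells, was at 0.678 and 0.501 FPKM.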
